A study of Mus musculus with 16 samples.

Results

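The 10 circadian clock genes Per1, Per2, Per3, Dbp, Nr1d1, Nr1d2, Arntl, Clock, Ciart, and Tef were followed through the medial prefrontal cortex (PFC) of 16 male mice by single-nucleus RNA sequencing. They were chosen by name, and all 10 were found among the 19999 genes of the table. The 4 groups of 4 mice were WT controls (B6;129 mice given pyrazole and air), WT alcohol mice, 3xTg-AD controls, and 3xTg-AD alcohol mice. 3xTg-AD mice carry human APP with the Swedish mutation and human tau P301L, both driven by the neuronal Thy1.2 promoter, and a PS1 M146V knock-in, and the transcripts of these transgenes were not analysed here. Exposed mice received repeated cycles of alcohol vapor with injections of ethanol and pyrazole, an inhibitor of alcohol dehydrogenase that the control mice also received. All mice were labelled as 22 weeks of age, and the PFC was taken after withdrawal from vapor and after a water maze test. The time of day at death is not given in the sources used here, so time of day and group cannot be told apart.

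In the molecular clock, CLOCK and BMAL1 (the product of Arntl) form a dimer that binds E-box sequences and switches on the Per genes, the REV-ERB genes Nr1d1 and Nr1d2, Ciart, Dbp, and Tef. PER proteins and CIART (also called CHRONO) feed back on the dimer, and REV-ERB proteins repress Arntl. DBP and TEF bind D-box sequences in a further set of rhythmic genes. The cortex has such clocks in neurons and in glia, timed by the suprachiasmatic nucleus, feeding, and hormones. Per1 is also an immediate-early gene that responds to CREB and to glucocorticoids.

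The table held 114512 nuclei, with between 9622031 and 17544364 unique molecular identifiers (UMIs) per mouse. Counts were summed per mouse over all nuclei and over nuclei gated by markers into 7 classes, among them 48449 glutamatergic nuclei, 5963 GABAergic nuclei, and 9657 astrocytes, and into 6 neuronal subclasses. A further 95 nuclei with vascular leptomeningeal or mural markers were too few to test. No class was given to 44380 nuclei (38.8%), which held a median of 940 UMIs beside 2460 in glutamatergic nuclei. The glutamatergic markers Sv2b and Tbr1 were less than 2 times as high in the class as in the other nuclei, which include those without a class. The ribosomal RNA-like transcript Gm42418 was at 17914 CPM (UMIs scaled to a common library total) or more in WT control mice 26 and 27 and 3xTg-AD control mouse 12, and at 4249 or less in the other 13 mice. There were 1694 barcodes found in more than 1 library, on 3400 nuclei.

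The 10 genes lie on 8 chromosomes of the mm10 build (GRCm38), with Per1 (ENSMUSG00000020893) at chr11:69095217-69109960 and Nr1d1 (ENSMUSG00000020889) at chr11:98767932-98775333 on the same one, as are Dbp at chr7:45705088-45710203 and Arntl at chr7:113207465-113314126. Nr1d2 (ENSMUSG00000021775) is at chr14:18204054-18239127 and Ciart (ENSMUSG00000038550) at chr3:95878503-95882251. All of Per3 lies inside the annotated span of Camta1 on the same strand, so its reads could be split between both genes, and its levels are uncertain. Ciart, Dbp, Nr1d1, and Tef overlap a gene of the table on the opposite strand (C920021L13Rik, Sphk2, Thra, and Gm17597), and the strand setting of the counting is not given in the sources used here.

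RefSeq promoter sequences (GRCm38.p6) were at hand for 9 of the 10 genes (all but Per2), with 14 transcription starts. They are shown for the genes that the comparisons below turn on and for Per3, whose sequence held D-boxes. Each line is the 250 bases before a start, 5′ to 3′ on the strand of the gene, and capitals mark the clock motifs that were found.
Per1, chr11:69098699-69098948, plus strand: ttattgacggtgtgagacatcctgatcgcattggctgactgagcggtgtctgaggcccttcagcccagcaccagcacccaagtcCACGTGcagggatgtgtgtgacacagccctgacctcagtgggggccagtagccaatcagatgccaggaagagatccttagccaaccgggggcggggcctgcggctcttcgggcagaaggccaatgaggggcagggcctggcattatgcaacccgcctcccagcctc
Per3, chr4:151044666-151044915, minus strand: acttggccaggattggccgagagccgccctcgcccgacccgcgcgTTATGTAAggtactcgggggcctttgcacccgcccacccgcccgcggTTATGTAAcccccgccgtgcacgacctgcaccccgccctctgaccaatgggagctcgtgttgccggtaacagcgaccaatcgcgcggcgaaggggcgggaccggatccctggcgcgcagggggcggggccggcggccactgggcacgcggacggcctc
Nr1d1, chr11:98775378-98775627, minus strand: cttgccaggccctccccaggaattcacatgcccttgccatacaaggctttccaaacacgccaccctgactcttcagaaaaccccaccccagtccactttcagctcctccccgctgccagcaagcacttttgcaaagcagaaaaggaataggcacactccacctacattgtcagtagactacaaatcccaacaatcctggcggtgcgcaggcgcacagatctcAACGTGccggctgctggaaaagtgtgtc
Nr1d2, chr14:18239107-18239356, minus strand: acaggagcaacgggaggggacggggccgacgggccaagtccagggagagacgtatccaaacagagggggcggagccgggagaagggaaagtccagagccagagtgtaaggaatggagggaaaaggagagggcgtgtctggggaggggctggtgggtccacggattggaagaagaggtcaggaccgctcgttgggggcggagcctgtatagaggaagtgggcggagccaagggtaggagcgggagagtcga
Ciart, chr3:95882229-95882478, minus strand: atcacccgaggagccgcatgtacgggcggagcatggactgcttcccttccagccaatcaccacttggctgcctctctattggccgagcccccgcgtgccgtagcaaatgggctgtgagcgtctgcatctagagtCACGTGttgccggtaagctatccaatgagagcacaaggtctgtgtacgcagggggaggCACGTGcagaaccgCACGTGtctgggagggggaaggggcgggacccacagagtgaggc

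The motifs searched on both strands were the E-box CACGTG, its variant CACGTT, the D-box TTANGTAA, the ROR elements TAGGTCA and TGGGTCA (the sites of REV-ERB proteins), and the cAMP response element TGACGTCA. An E-box was found at 4 of the 14 starts (1 of Per1, 1 of Ciart, and 2 of Tef), and in 6.02% of all 32851 promoters of the same length. Ciart held 3 E-boxes, which began 116, 58, and 44 bases before the start, and Per1 held 1, which began 166 bases before the upstream of its starts. The E-box variant was found in Nr1d1 (3.85% of all promoters) and the D-box, with 2 copies, in Per3 (2.06%). ROR elements (5.38% of all promoters) and the cAMP response element (1.55%) were found in none of the 9 genes. A match says only that these letters are in the window.

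In which cell classes of the PFC the clock transcripts were a larger share of the RNA was asked first. As a share of the UMIs of the class, astrocytes held more Dbp, Nr1d1, Nr1d2, Per3, and Tef than glutamatergic neurons in 16 of 16 mice. Clock and Arntl were a smaller share in astrocytes. By the same measure GABAergic neurons held less of 8 of the 10 genes than glutamatergic neurons, most of all of Per3, whose levels are uncertain. The median nucleus held 2460 UMIs in glutamatergic neurons, 1847 in GABAergic neurons, and 1186 in astrocytes. Transcripts per nucleus were not compared. The comparisons were paired within mouse, on the log2(CPM + 1) scale, with exact sign-flip permutation tests (two-sided) adjusted over the 20 comparisons, of which 17 passed. This set of comparisons was chosen after the levels had been seen. The test was not run on all genes, so whether the count of 17 is particular to clock genes was not tested.

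Dbp, a D-box activator, was at 182 ± 35.6 CPM in astrocytes and 82.4 ± 15.4 in glutamatergic neurons (mean ± SD, 16 mice), a difference of 1.14 on the log2 scale (SD 0.19, adjusted p = 7.63e-05, exact permutation test). The lowest mouse had 128 in astrocytes and the highest had 103 in glutamatergic neurons, so the classes did not overlap. Nr1d1 was at 77.0 ± 11.8 in astrocytes and 36.8 ± 7.15 in glutamatergic neurons, a difference of 1.05 (SD 0.34). The differences of Nr1d2, Per3, and Tef were 0.59, 0.51, and 0.33 with the same adjusted p, from an unadjusted p of 3.05e-05, the smallest that 16 mice can give. Clock was lower in astrocytes by a mean of -0.71 on the log2 scale (85.7 ± 17.1 versus 139 ± 14.3 CPM, higher in astrocytes in 1 of 16 mice, adjusted p = 0.000122, exact permutation test). Arntl differed by -0.46 (22.2 ± 8.52 versus 29.5 ± 3.96, adjusted p = 0.000854, exact permutation test). Both activators were thus lower in astrocytes, and 5 of the 8 other genes were higher there in every mouse. Per2 was higher in astrocytes in 11 of 16 mice (difference 0.23, adjusted p = 0.0131, exact permutation test). Per1 and Ciart did not pass, with differences of -0.07 (SD 0.26) and -0.16 (SD 0.45). Other non-neuronal classes also had a higher mean of Dbp than glutamatergic neurons. It was 177 ± 89.0 CPM in endothelial cells, 150 ± 70.4 in microglia, and 102 ± 27.2 in oligodendrocytes, on 121, 226, and 301 UMIs in all. Arntl was at 7.92 ± 12.7, 8.32 ± 9.96, and 10.7 ± 8.88 in these classes. They were not compared with glutamatergic neurons in this set of comparisons.

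Per3 was at 39.4 ± 9.21 CPM in GABAergic neurons and 108 ± 12.8 in glutamatergic neurons, a difference of -1.46 (SD 0.32), and was lower in GABAergic neurons in 16 of 16 mice (adjusted p = 7.63e-05, exact permutation test). The highest GABAergic value was 56.3 and the lowest glutamatergic value 90.6. The reads of Per3 could be split with Camta1, and the part of this in the difference was not tested. Per2 (-0.93), Ciart (-0.75), Arntl (-0.61), Per1 (-0.48), Nr1d1 (-0.41), Dbp (-0.37), and Tef (-0.37) were lower as well. Clock was higher in GABAergic neurons in 13 of 16 mice, by 0.13 (SD 0.15, adjusted p = 0.0021, exact permutation test), and Nr1d2 differed by 0.00 (SD 0.26, adjusted p = 0.94, exact permutation test).

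Over the 7 classes in the order of their means, 6 of 60 neighbouring steps passed (exact sign-flip permutation test, adjusted over the 60 steps). These were Clock between oligodendrocytes and astrocytes (125.8 ± 47.2 versus 85.7 ± 17.1 CPM, higher in 16 of 16 mice), Per3 between glutamatergic neurons and microglia, Per2 between glutamatergic neurons and oligodendrocytes, Arntl between glutamatergic neurons and astrocytes, and Dbp and Nr1d1 between glutamatergic and GABAergic neurons. The other steps did not pass. Neighbours in this order have close means by construction, so this does not show that those classes are alike. The steps were not tested for all genes. In the small classes the counts were few, with 5 UMIs of Arntl over all endothelial nuclei (0 in 11 of 16 mice) and 15 over all microglia (0 in 8 of 16). The median nucleus of each class other than the glutamatergic one, GABAergic neurons included, held 1 UMI of the 6 glutamatergic markers. The part of glutamatergic RNA in the levels of the other classes was not tested.

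**Figure D1:**
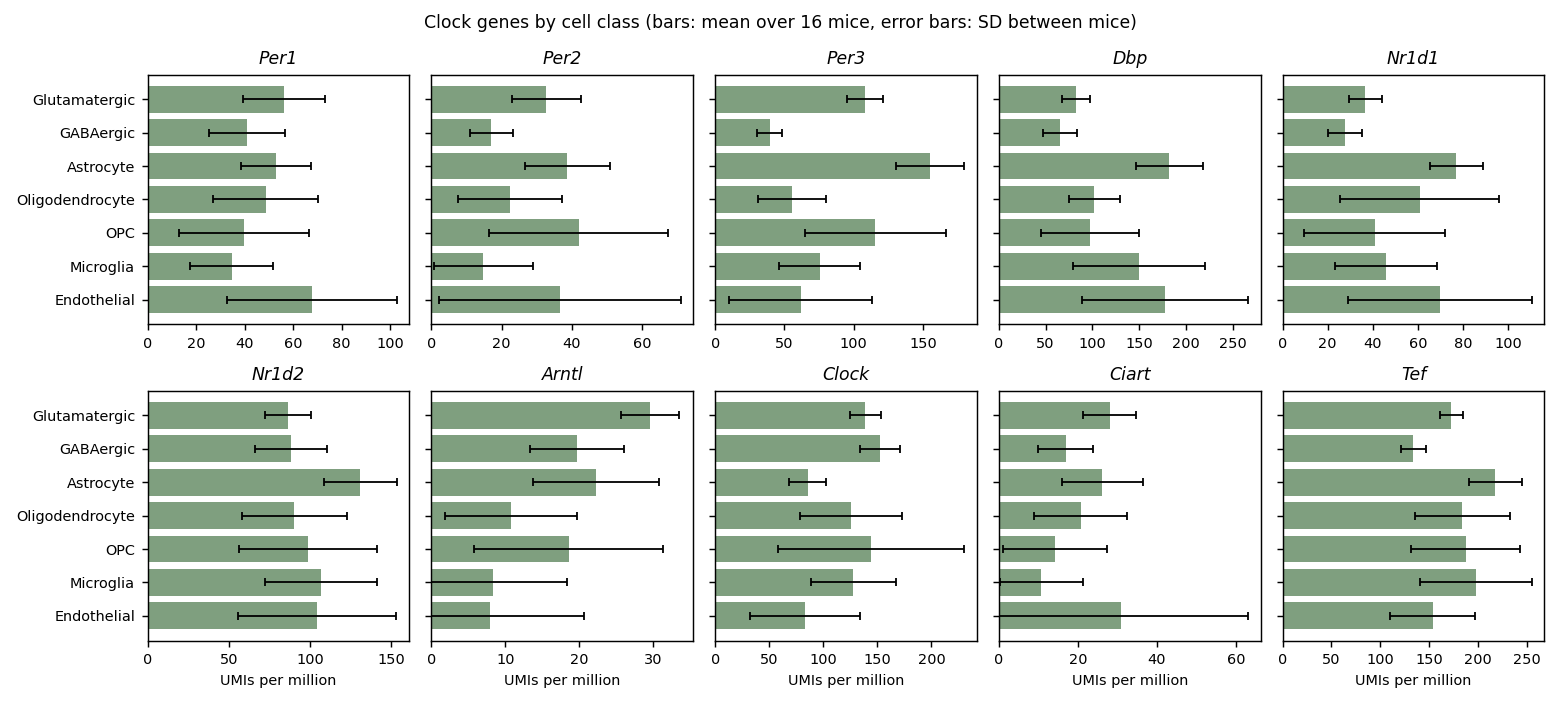
CPM of the 10 clock genes in 7 cell classes, 1 panel per gene. Bars are means over 16 mice and error bars are SDs between mice. Dbp averaged 182 in astrocytes and 82.4 in glutamatergic neurons, and Per3 averaged 108 in glutamatergic and 39.4 in GABAergic neurons. The levels of Per3 are uncertain, as the gene lies inside Camta1.

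Whether alcohol exposure and genotype changed the clock genes was then tested in the sum of all nuclei, with edgeR and a mean for each group. Levels in this and the next paragraphs are CPM after TMM scaling, and differences are log2 fold changes with their SE. The 8 comparisons draw on the same 16 mice, and those with WT controls share that group. In such sums, fewer nuclei of a type and less RNA per nucleus cannot be told apart.

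Per1 was lower in alcohol-exposed mice. WT controls were at 43.6 (mouse 26), 74.6 (27), 79.4 (28), and 48.8 (36), and WT alcohol mice at 45.01 (6), 44.5 (7), 42.0 (17), and 40.0 (18). 3xTg-AD controls were at 53.6 (12), 72.3 (13), 77.8 (14), and 57.8 (21), and 3xTg-AD alcohol mice at 57.9 (4), 47.6 (31), 44.97 (33), and 35.8 (34). In WT mice the groups overlapped by control mouse 26, and in 3xTg-AD mice by control mice 12 and 21 and exposed mouse 4. Over both genotypes Per1 averaged 63.5 ± 14.1 in control mice and 44.7 ± 6.45 in exposed mice (SD, n = 8). On the log2 scale it fell by 0.50 with alcohol (SE 0.13, adjusted p = 0.0408, edgeR). The change was -0.52 in WT mice and -0.49 in 3xTg-AD mice (adjusted p = 0.27 and 0.25), and the interaction was 0.03 (SE 0.25, adjusted p = 0.99). Per1 was the 1 of 10 clock genes called with alcohol, where 3.3% of all 16767 genes tested were called.

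The call of Per1 was lost when any one of 12 mice was left out, at an adjusted p between 0.0505 and 0.0984 and a log2 fold change between -0.53 and -0.43. These were WT control mice 27 and 28, WT alcohol mice 6, 7, 17, and 18, 3xTg-AD control mice 13, 14, and 21, and 3xTg-AD alcohol mice 31, 33, and 34. Without the 3 mice high in Gm42418 the change was -0.58 (adjusted p = 0.016). All 3 are controls, and WT control mouse 26 and 3xTg-AD control mouse 12 had the lowest Per1 of their groups. Leaving them out raises the control level, whatever their Gm42418.

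Per2, the paralog of Per1 in the repressor complex, had nearly the same difference. WT controls were at 30.1 (26), 37.4 (27), 38.4 (28), and 33.04 (36), and WT alcohol mice at 22.7 (6), 21.2 (7), 24.3 (17), and 21.4 (18). The WT groups did not overlap. 3xTg-AD controls were at 36.5 (12), 40.3 (13), 46.0 (14), and 24.6 (21), and 3xTg-AD alcohol mice at 36.5 (4), 35.5 (31), 23.7 (33), and 19.3 (34). In 3xTg-AD mice the groups overlapped. The log2 fold change with alcohol was -0.49 (SE 0.13), just outside the threshold (adjusted p = 0.054, edgeR). It was -0.63 (SE 0.19, adjusted p = 0.25) in WT mice and -0.35 (SE 0.19, adjusted p = 0.49) in 3xTg-AD mice, and the interaction was 0.28 (SE 0.27, adjusted p = 0.94). With DESeq2 the adjusted p of Per2 was 0.0138, and it was 0.0495 with RLE scaling. It passed without 3xTg-AD alcohol mouse 31 (-0.55) or 4 (-0.57) or 3xTg-AD control mouse 21 (-0.55).

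Nr1d2, the REV-ERBβ gene, was lower in 3xTg-AD alcohol mice than in WT controls. WT controls were at 99.5 (26), 116 (27), 101 (28), and 112 (36), and 3xTg-AD alcohol mice at 85.9 (4), 82.0 (31), 70.6 (33), and 74.6 (34). These groups did not overlap. WT alcohol mice were at 85.4 (6), 80.5 (7), 108.8 (17), and 84.4 (18), and 3xTg-AD controls at 95.4 (12), 81.3 (13), 89.7 (14), and 85.7 (21). Both of these groups overlapped the 3xTg-AD alcohol mice, and WT alcohol mouse 17 lay within the WT controls. The log2 fold change versus WT controls was -0.45 (SE 0.10, adjusted p = 0.0218, edgeR). Nr1d2 was the 1 of 10 clock genes called in this comparison, where 4.06% of all genes were called. The call was lost without WT control mouse 27 or 3xTg-AD alcohol mouse 33 or 34 (changes between -0.43 and -0.40, adjusted p between 0.0522 and 0.0711), and without the 3 mice high in Gm42418 (-0.44, adjusted p = 0.0521) or with Gm42418 as a covariate (-0.41, adjusted p = 0.0767). The make-up of the nuclei moved with this comparison, as astrocytes were 9.49% to 10.96% of the nuclei of 3xTg-AD alcohol mice and 6.87% to 8.40% of those of WT controls, and microglia 1.67% to 3.65% and 0.502% to 1.44%. Neither share overlapped between these groups. The difference within glutamatergic neurons, which hold several subclasses, was -0.43, and its call was lost in 13 of 16 fits without 1 mouse. The part of make-up in the difference of Nr1d2 was not tested.

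With each factor alone Nr1d2 did not pass. It had a log2 fold change of -0.24 with genotype (SE 0.07, adjusted p = 0.0839) and -0.21 with alcohol (SE 0.07, adjusted p = 0.12). Versus WT controls it was -0.28 in 3xTg-AD controls and -0.25 in WT alcohol mice (adjusted p = 0.39 and 0.31). The interaction was 0.08 (SE 0.15, adjusted p = 0.95). With DESeq2 the genotype effect had an adjusted p of 0.035.

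Ciart, a repressor of the CLOCK dimer, had its highest mean in WT controls, at 35.4 (26), 28.8 (27), 38.6 (28), and 21.7 (36). WT alcohol mice averaged 24.3 ± 4.83, 3xTg-AD controls 23.6 ± 4.51, and 3xTg-AD alcohol mice 21.4 ± 3.13 (SD, n = 4). Mouse 36 lay within the range of every other group. The log2 fold change of 3xTg-AD alcohol mice versus WT controls was -0.54 (SE 0.18, adjusted p = 0.10), and without WT control mouse 36 it was -0.68 (adjusted p = 0.0349). With genotype it was -0.29 (SE 0.13, adjusted p = 0.27), and in 3xTg-AD controls versus WT controls -0.39 (adjusted p = 0.60).

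Nr1d1, the REV-ERBα gene, had a log2 fold change of -0.24 with genotype (SE 0.10, adjusted p = 0.24). It averaged 48.5 ± 7.65 in WT alcohol mice and 37.9 ± 4.95 in 3xTg-AD alcohol mice (-0.36, SE 0.14, adjusted p = 0.27). In the same comparison the activators Arntl (23.5 ± 1.79 versus 27.8 ± 3.63) and Clock (117 ± 8.32 versus 136.6 ± 19.6) had log2 fold changes of 0.25 and 0.22 (adjusted p = 0.35 and 0.34). None of the 3 passed.

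Dbp, Per3, and Tef had an unadjusted p of 0.0906 or more in each of the 8 comparisons. Dbp ranged from 65.7 (3xTg-AD control mouse 12) to 129 (WT alcohol mouse 18), with group means between 95.4 and 109 and overlapping groups. Per3 had group means between 89.6 and 101.6, and its log2 fold change with alcohol was 0.00 (SE 0.10). Tef was the steadiest, with group means between 169.6 and 180.4 and a log2 fold change with genotype of -0.05 (SE 0.06).

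Of the 10 clock genes, 0 were called with genotype (3.28% of all genes were called), 0 in 3xTg-AD controls versus WT controls (0.435%), 0 with alcohol among WT mice (0.0179%), 0 with alcohol among 3xTg-AD mice (0.483%), 0 in 3xTg-AD versus WT alcohol mice (0.942%), and 0 in the interaction (0.0%). At an unadjusted p under 0.05 the counts were 3, 2, 3, 1, 3, and 0, where 16.2%, 8.18%, 14.2%, 12.01%, 14.004%, and 3.48% of all genes were under it. With alcohol and in 3xTg-AD alcohol mice versus WT controls they were 3 and 3, beside 20.9% and 20.1%. The median log2 fold change of the 10 genes was -0.05 with alcohol and -0.14 in 3xTg-AD alcohol mice versus WT controls, and that of all genes was 0.01 and 0.00. For the comparisons listed first in this paragraph, in that order, the median of the 10 genes was -0.02, -0.06, -0.17, -0.07, 0.05, and 0.14. That of all genes lay between -0.01 and 0.01 in these.

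**Figure D2:**
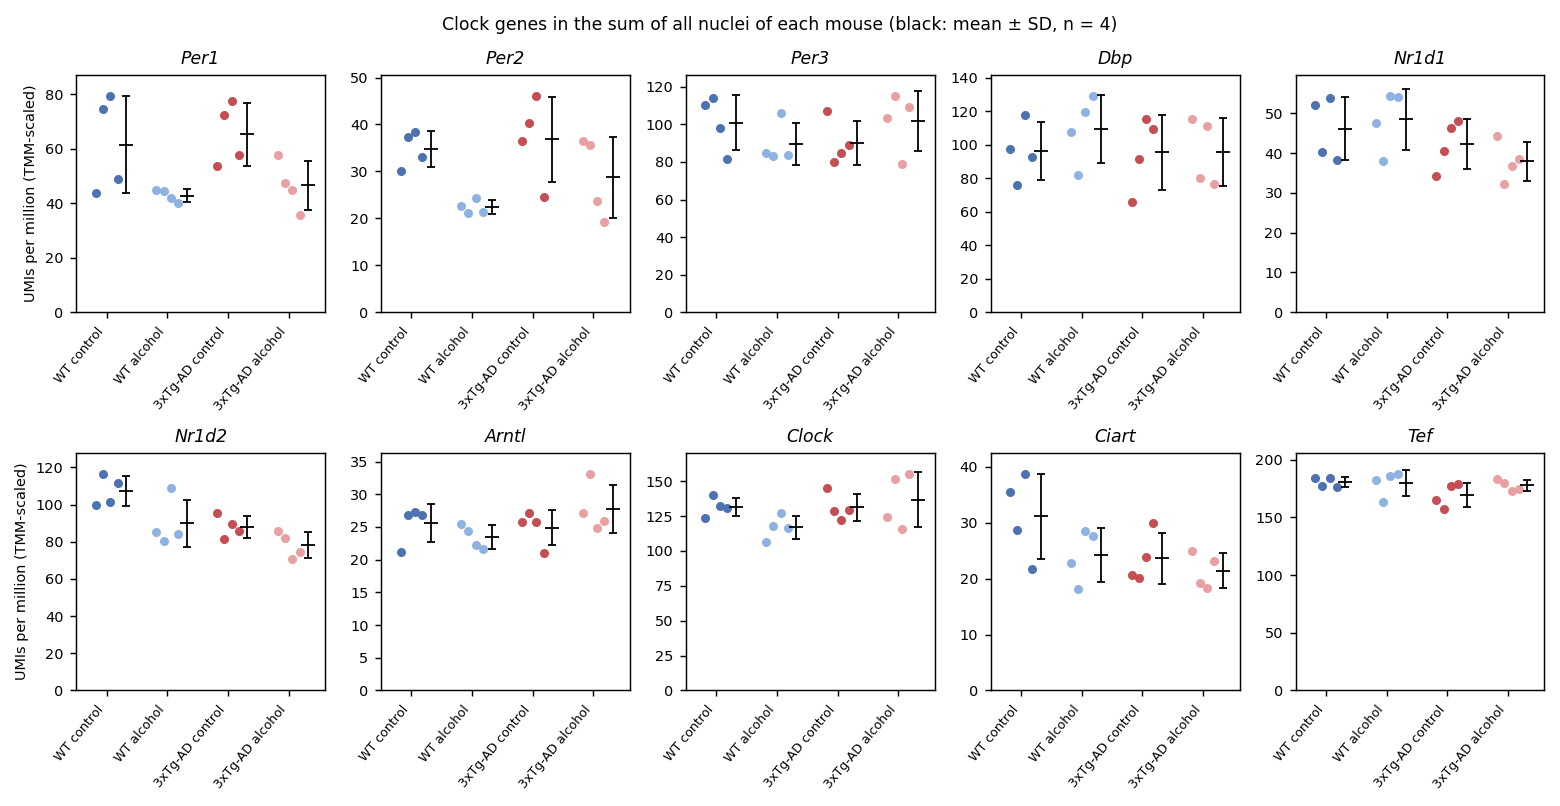
TMM-scaled CPM of each clock gene in the sum of all nuclei, with 1 point per mouse in each of the 4 groups and the mean ± SD (n = 4) in black. Per2 of WT alcohol mice (21.2 to 24.3) lay below all WT controls (30.1 to 38.4), and Nr1d2 of 3xTg-AD alcohol mice (70.6 to 85.9) below all WT controls (99.5 to 116).

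The same comparisons were made within cell classes, to find where the differences lay. Enough UMIs for a test were reached by Per1 in 9 of the 13 classes and subclasses, Per2, Arntl, and Ciart in 6, Nr1d1 in 7, Per3 in 8, Dbp and Nr1d2 in 11, and Clock and Tef in 12. OPCs and endothelial cells gave few of these tests. In all, 88 tests were made in each comparison.

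Nuclei of a subclass are also in the glutamatergic or GABAergic class, so counts over classes and subclasses hold these nuclei more than once. The difference of Per1 with alcohol was below 0 in 9 of 9 classes and subclasses. It was -0.50 (SE 0.14) in glutamatergic neurons, -0.53 (SE 0.20) in GABAergic neurons, and -0.49 (SE 0.14) in astrocytes, with adjusted p = 0.0668, 0.22, and 0.0887. In L2/3 IT neurons it was -0.56 (SE 0.15, adjusted p = 0.059). It was nearest to 0 in oligodendrocytes (-0.11, SE 0.29), the Lhx6 lineage (-0.14, SE 0.30), and the Adarb2 lineage (-0.29, SE 0.30). Whether the classes differed was not tested. In astrocytes WT controls were at 41.0 (26), 66.2 (27), 84.5 (28), and 52.7 (36), and WT alcohol mice at 40.5 (6), 46.1 (7), 47.4 (17), and 47.2 (18). The 3xTg-AD groups of astrocytes did not overlap, with controls between 55.5 and 75.4 and exposed mice between 35.0 and 51.6. Per2 was below 0 in 6 of 6 classes and subclasses, with -0.53 (SE 0.15, adjusted p = 0.0602) in glutamatergic neurons and -0.69 (SE 0.22, adjusted p = 0.15) in L6 CT neurons. In GABAergic neurons Per2 averaged 19.7 ± 1.88 in WT controls and 10.4 ± 2.77 in WT alcohol mice. It averaged 19.5 ± 7.21 in 3xTg-AD controls and 20.4 ± 6.59 in 3xTg-AD alcohol mice there, on 39 to 68 UMIs per group. The interaction passed for no clock gene in any class. Over all classes, 0 of 88 tests of clock genes passed with alcohol (0.903% of the tests of all genes passed), and 16 had an unadjusted p under 0.05, as did 13.4% of the tests of all genes.

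Nr1d2 passed in GABAergic neurons. There WT controls were at 128.7 (26), 98.5 (27), 116 (28), and 127 (36), on 64 to 114 UMIs each. 3xTg-AD alcohol mice were at 59.0 (4), 57.4 (31), 68.0 (33), and 74.5 (34), on 47 to 55 UMIs each. These groups did not overlap, and the log2 fold change was -0.87 (SE 0.17, adjusted p = 0.00454, edgeR, where 1.03% of genes were called). With genotype it was -0.53 (SE 0.12, adjusted p = 0.0173, with 1.07% of genes called), and with alcohol -0.34 (SE 0.12, adjusted p = 0.19). WT alcohol mice were at 88.8 (6), 70.8 (7), 125.8 (17), and 94.8 (18), and 3xTg-AD controls at 94.5 (12), 66.3 (13), 88.8 (14), and 91.6 (21). The call with genotype was lost without 3xTg-AD alcohol mouse 31, 3xTg-AD control mouse 13, or WT alcohol mouse 17 (changes between -0.50 and -0.44), and with the stricter gate (-0.59, adjusted p = 0.051). The call versus WT controls held without each mouse and without the 3 mice high in Gm42418 (-0.93, adjusted p = 0.00533).

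Among GABAergic neurons the difference was larger in the Lhx6 lineage, which holds the Pvalb and Sst types. WT controls were at 174 (26), 119 (27), 167 (28), and 126 (36), and 3xTg-AD alcohol mice at 46.8 (4), 67.2 (31), 58.3 (33), and 71.0 (34). The log2 fold change was -1.22 (SE 0.26, adjusted p = 0.00666, with 0.696% of genes called), and these groups did not overlap. With Gm42418 as a covariate it was -1.09 and the call was lost (adjusted p = 0.0831), while it held without each mouse. The counts were low, at 19 to 46 UMIs per WT control and 11 to 18 per 3xTg-AD mouse exposed to alcohol. In the Adarb2 lineage, with the Vip type, it was -0.49 (SE 0.27, adjusted p = 0.58). Whether the 2 lineages differed was not tested.

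In glutamatergic neurons Nr1d2 fell by 0.43 on the log2 scale in 3xTg-AD alcohol mice versus WT controls (SE 0.12, adjusted p = 0.0475, with 3.11% of genes called). WT controls were at 94.5 to 110 and 3xTg-AD alcohol mice at 66.1 to 82.7. This call was lost in 13 of the 16 fits without 1 mouse, at -0.48 to -0.37 and an adjusted p of 0.0507 to 0.135. Of these fits it kept the call without WT alcohol mouse 6 or 17 or 3xTg-AD control mouse 12. The call was also lost with no count filter, with the stricter gate (-0.36), without the 3 mice high in Gm42418, and with Gm42418 as a covariate (adjusted p between 0.0583 and 0.11). In the L2/3 IT, the L5 IT, and then the L6 CT subclass the log2 fold changes were -0.51, -0.64, and -0.42 (adjusted p = 0.0676, 0.16, and 0.36). In astrocytes it was -0.29 (SE 0.16, adjusted p = 0.45), and with genotype -0.03 (SE 0.11), against -0.26 (SE 0.08) in glutamatergic neurons. Nr1d2 was below 0 in 11 of 11 classes and subclasses versus WT controls and with genotype. The differences between classes were not tested.

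**Figure D3:**
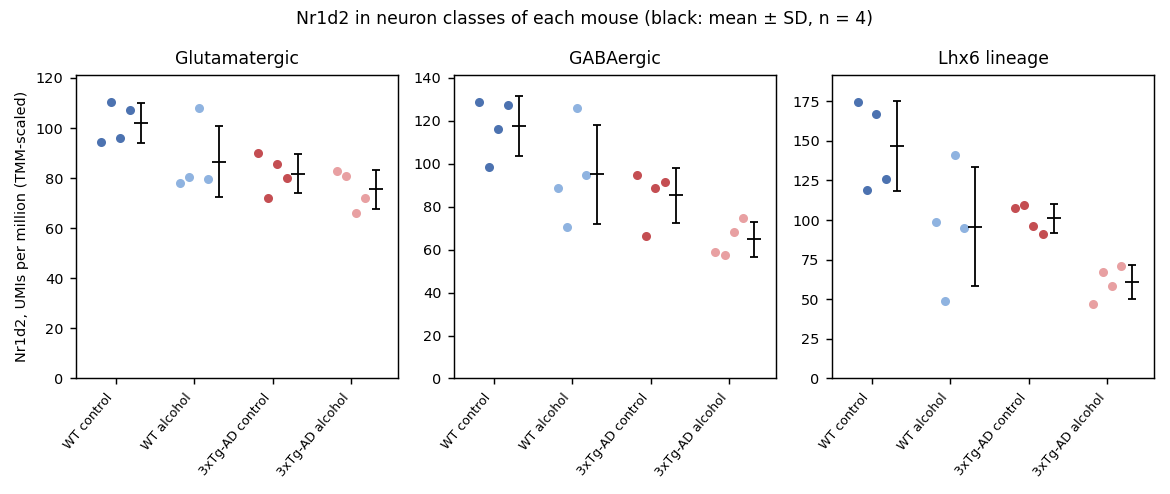
TMM-scaled CPM of Nr1d2 in glutamatergic neurons, GABAergic neurons, and the Lhx6 lineage, with 1 point per mouse and the mean ± SD (n = 4) in black. In GABAergic neurons the 4 WT controls (98.5 to 128.7) lay above the 4 3xTg-AD alcohol mice (57.4 to 74.5).

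Ciart passed in 1 class. In L6 CT neurons it was at 47.0 (26), 45.9 (27), 33.05 (28), and 20.2 (36) in WT controls, at 17.4 (6), 19.4 (7), 24.7 (17), and 23.5 (18) in WT alcohol mice, at 9.64 (12), 19.1 (13), 7.76 (14), and 13.7 (21) in 3xTg-AD controls, and at 19.8 (4), 10.9 (31), 16.1 (33), and 13.98 (34) in 3xTg-AD alcohol mice. The log2 fold change with genotype was -0.996 (SE 0.24, adjusted p = 0.0237, with 0.735% of genes called). The highest values were in WT control mice 26 and 27, which are among the mice high in Gm42418, and without the 3 such mice it was -0.61 (adjusted p = 0.47). These sums held between 2 and 49 UMIs per mouse and between 79 and 565 L6 CT nuclei. The call was also lost without WT control mouse 26 or 27, WT alcohol mouse 17 or 18, 3xTg-AD control mouse 12, or 3xTg-AD alcohol mouse 31 or 34 (changes between -0.99 and -0.89). With Gm42418 as a covariate the call held (-0.89, adjusted p = 0.0444), and with DESeq2 it was lost (-1.01, adjusted p = 0.0691).

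Over the 13 classes and subclasses, 2 of 88 tests of clock genes passed with genotype and 3 of 88 in 3xTg-AD alcohol mice versus WT controls, where 1.22% of the tests of all genes passed in both. Nr1d2 accounted for 4 of these 5 calls and Ciart for the other. The remaining comparisons gave 0 of 88 each, against 0.175% of all tests in 3xTg-AD controls versus WT controls, 0.0224% with alcohol among WT mice, 0.122% with alcohol among 3xTg-AD mice, 0.411% between the alcohol-exposed genotypes, and 0.0% in the interaction. At an unadjusted p under 0.05 they gave 9, 10, 12, 14, and 4, beside 6.73%, 9.65%, 8.20%, 9.45%, and 4.09% of all tests.

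**Figure D4:**
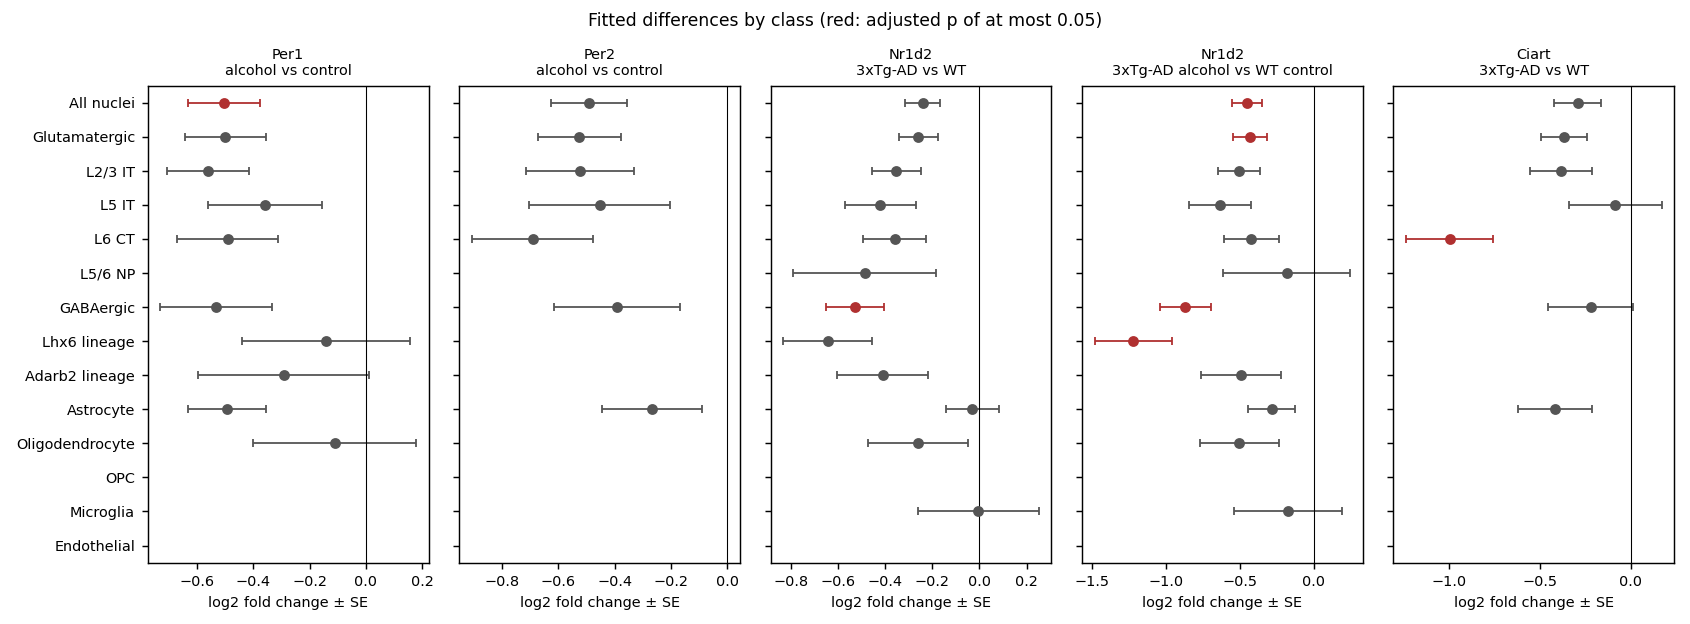
Log2 fold changes (points) with their SE (bars) of Per1 and Per2 with alcohol, of Nr1d2 with genotype and in 3xTg-AD alcohol mice versus WT controls, and of Ciart with genotype, in all nuclei and in each class where the gene could be tested. Red marks an adjusted p of at most 0.05. Nr1d2 reached -1.22 in the Lhx6 lineage and -0.29 in astrocytes.

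Next it was asked whether the clock genes varied together from mouse to mouse once the group means were removed. Log2(CPM + 1) in the sum of all nuclei was used, with permutation tests within groups adjusted over the 45 pairs. Nr1d1 and Ciart varied together most closely (r = 0.88, adjusted p = 0.009; rho = 0.90, adjusted p = 0.00405; permutation tests, 16 mice), and without the 2 mice farthest from the median r was 0.86. Dbp and Nr1d1 had r = 0.87 (adjusted p = 0.0151) and rho = 0.86 (adjusted p = 0.013), with r = 0.79 without 2 mice. Per1 and Per2 had r = 0.75 (adjusted p = 0.0228) and rho = 0.77 (adjusted p = 0.016), with r = 0.74 without 2 mice. Per2 and Arntl had r = 0.73 (adjusted p = 0.0151) and rho = 0.79 (adjusted p = 0.013), with r = 0.74 without 2 mice. The unadjusted p of these pairs by r were 2e-04, 0.00085, 0.00203, and 0.00101. The share of all gene pairs with such an r was not computed. Among 10370 genes the highest r was 0.97 with Dbp (Vstm2l) and 0.96 with Arntl (Shisa7), above that of every clock pair. Whether the clock pairs stand apart from pairs of other genes was not tested.

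After TMM scaling 6 pairs passed by r. Nr1d1 with Ciart (r = 0.90), Dbp with Nr1d1 (0.83), and Per1 with Per2 (0.69) passed on both scales. Ciart with Tef (0.76), Nr1d1 with Tef (0.73), and Per3 with Clock (0.69) passed after TMM scaling alone, the last not by rho (0.59, adjusted p = 0.15, permutation test), and Per2 with Arntl no longer passed (0.67, adjusted p = 0.0856, permutation test). Without the 3 mice high in Gm42418, Nr1d1 with Ciart (r = 0.92) and Per1 with Per2 (r = 0.79) passed by r (adjusted p = 0.0414 for both, permutation tests), the latter not by rho (adjusted p = 0.10), and Dbp with Nr1d1 did not (r = 0.78, adjusted p = 0.16, permutation test). Arntl and the REV-ERB gene Nr1d1, which peak at opposite phases of the clock, had r = -0.16, and -0.54 after TMM scaling (adjusted p = 0.80 and 0.20, permutation tests). The other REV-ERB gene, Nr1d2, went the other way with Arntl, at r = 0.53, and 0.19 after TMM scaling (adjusted p = 0.27 and 0.82, permutation tests).

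**Figure D5:**
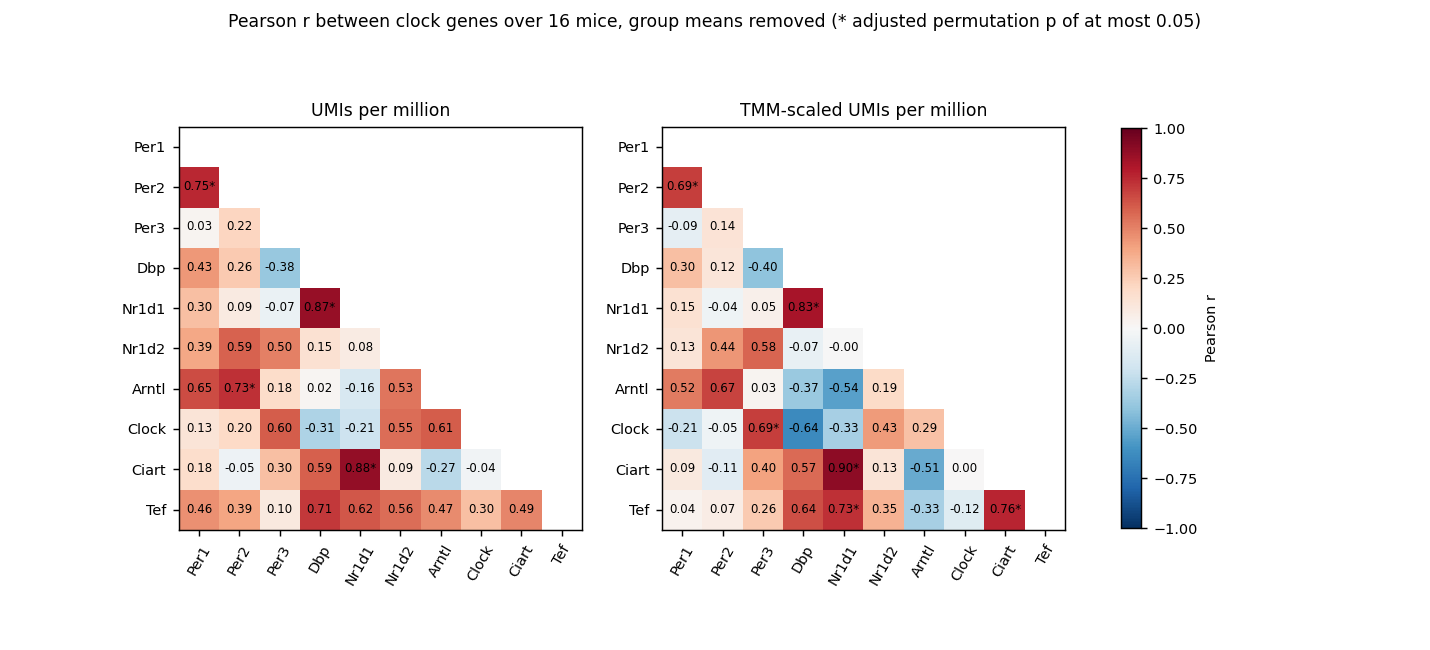
Pearson r between clock genes over 16 mice with group means removed, on CPM (left) and after TMM scaling (right). Stars mark an adjusted permutation p of at most 0.05. Nr1d1 with Ciart reached 0.88 and 0.90.

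Levels in glutamatergic neurons and in astrocytes of the same mouse were compared in the same way, with 20 relations tested. Dbp (r = 0.79, rho = 0.84), Nr1d2 (r = 0.77, rho = 0.76), and Per3 (r = 0.75, rho = 0.65) passed (adjusted p = 0.0173, 0.0325, and 0.0173 by r and 0.0178, 0.0455, and 0.0455 by rho, permutation tests, 16 mice). Without the 2 mice farthest from the median r was 0.70, 0.73, and 0.62. Both classes of a mouse came from 1 library, and the share of all genes that would pass was not computed. With the stricter gate Nr1d2 passed by r (0.83, adjusted p = 0.0384) but not by rho (0.81, adjusted p = 0.0624, permutation tests), and Dbp (r = 0.61) and Per3 (r = 0.63) did not (adjusted p = 0.17 for both, permutation tests). Per1 (r = 0.66) and Per2 (r = 0.74) did not pass (adjusted p = 0.14 and 0.0785, permutation tests). Between glutamatergic neurons and oligodendrocytes 0 of 10 passed, the largest being Dbp (r = 0.61, adjusted p = 0.14, permutation test). Without the 3 mice high in Gm42418 none of the 20 passed by r, and r was 0.63 for Dbp, 0.73 for Nr1d2, and 0.80 for Per3.

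The genes whose levels over the 16 mice were most like those of Dbp, group means removed, were Vstm2l (r = 0.97), Lrrc59 (0.95), Atxn7l3 (0.94), Ptges2 (0.93), and Basp1 (0.93), and the most opposite were Etfdh (-0.95), Aasdh (-0.93), Tenm1 (-0.91), Slf2 (-0.91), and Lrp6 (-0.89), among 10370 genes. For Arntl they were Shisa7, Cfp, Mafg, Srsf6, and 1810030O07Rik (0.96 each) and, opposite, Tmem203 (-0.82), Vcp (-0.77), Utp18 (-0.77), Utp3 (-0.76), and Them6 (-0.76). These are descriptions, and the mice share the depth and composition of their libraries across genes. After TMM scaling Vstm2l, Lrrc59, and Atxn7l3 again led for Dbp (0.97, 0.93, and 0.93), while none of the 5 opposite genes was the same.

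The wider clock network was read from a list of 28 genes, with 27 tested in all nuclei. It holds the CRY repressors, ROR activators, DEC repressors, kinases, and ubiquitin ligases of the clock. With genotype 1 of 27 fell and 0 rose, near the 3.28% of all genes called, with a median log2 fold change of -0.03 beside -0.01 for all genes, and with alcohol 0 of 27 passed beside 3.3% of all genes (2 at an unadjusted p under 0.05, beside 20.9%). The gene that fell was Rora, the activator that competes with REV-ERB proteins for ROR elements. It averaged 64.0 ± 8.03 in WT controls, 62.3 ± 2.26 in WT alcohol mice, 49.4 ± 9.38 in 3xTg-AD controls, and 47.1 ± 4.77 in 3xTg-AD alcohol mice (SD, n = 4), a log2 fold change of -0.39 with genotype (SE 0.09, adjusted p = 0.0173, edgeR). It was also called in 3xTg-AD alcohol mice versus WT controls (-0.44, adjusted p = 0.0498), where 1 of 27 passed beside 4.06% of all genes, and with genotype in glutamatergic neurons (-0.49, adjusted p = 0.014, with 2.92% of genes called) and L6 CT neurons (-0.78, adjusted p = 0.0364, with 0.735% called). In glutamatergic neurons it was called in 3xTg-AD alcohol mice versus WT controls too (-0.59, adjusted p = 0.0361, with 3.11% called).

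Because Per1 also responds to neuronal activity and to glucocorticoids, 12 activity-dependent genes and 10 glucocorticoid-responsive genes were examined beside it. In all nuclei 0 of 12 activity-dependent genes passed in any of the 8 comparisons. With alcohol 10 of 12 had a log2 fold change below 0, with a median of -0.24 beside 0.01 for all genes, and 2 had an unadjusted p under 0.05, as did 20.9% of all genes. In GABAergic neurons 8 of 8 were below 0 (median -0.66, 5 at an unadjusted p under 0.05, beside 13.2% of all genes), in astrocytes 8 of 10 (median -0.51, 5 under 0.05, beside 12.7%), and in glutamatergic neurons 8 of 12 (median -0.18, 0 under 0.05, beside 20.3%), and 0 were called in these classes, where 0.92%, 0.303%, and 2.78% of all genes were called. In oligodendrocytes 1 of 5 was called beside 0.0454% of all genes. This was Egr1, an immediate-early transcription factor (-0.91, SE 0.20, adjusted p = 0.0198, edgeR), which was also called higher with genotype there (0.76, adjusted p = 0.0347, with 0.636% of genes called) and is named after its values were seen. Of the glucocorticoid-responsive genes 7 of 10 were below 0 with alcohol (median -0.15), and 0 passed, beside 3.3% of all genes. In 3xTg-AD alcohol mice 1 of 10 was called (beside 4.06% of all genes), Zbtb16, which fell by 0.53 on the log2 scale in 3xTg-AD alcohol mice versus WT controls (SE 0.13, adjusted p = 0.0338), from 46.2 ± 4.15 to 31.99 ± 4.50. In oligodendrocytes 1 of 5 was called with genotype (beside 0.636% of all genes), Plin4 (-1.12, SE 0.30, adjusted p = 0.0379), also named after its values were seen. The part of neuronal activity and glucocorticoids in the level of Per1 was not tested.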

How the data were processed

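The authors isolated nuclei from snap-frozen medial PFC of 16 mice, made libraries with the Chromium Single Cell 3ʹ kit v3.1, and processed the reads with Cell Ranger 6.1.1, which uses STAR, on mm10 (tools and build per the submitters' processing notes). The deposited values are raw UMI counts per gene and nucleus, without normalization, in 1 table of 19999 genes. Whether intronic reads were counted is not given in the sources used here. All columns were mapped to a mouse by their label.

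Nuclei entered a class when its markers held at least 3 UMIs from at least 2 genes and at least 2 times the UMIs of every other class. A subclass needed 2 UMIs from 2 genes and 2 times those of the others. Doublets were not called, and a nucleus with mixed markers stayed unassigned. Of the glutamatergic nuclei 5954 stood at the limit of 3 UMIs, and 10844 nuclei were 1 UMI short of it. Counts were summed per mouse and class, where a mouse needed 10 nuclei and a group 3 such mice. In fits that left out mice a group needed 2. Without the 3 mice high in Gm42418 the WT controls were mice 28 and 36 alone. A call lost in those fits could come from the smaller group. Tests on these sums were made in R 4.3.3 by the robust quasi-likelihood fit of edgeR 4.0.16, with TMM scaling, filterByExpr, and 4 group means, and p-values were adjusted by Benjamini-Hochberg over all genes of a class and comparison, with calls at 0.05 or less. The p-values measure the spread between 4 mice per group. DESeq2 1.42.0, RLE scaling, no count filter, a filter on nuclei (at least 500 genes and at most 5% mitochondrial UMIs), a stricter gate, Gm42418 as a covariate, and leaving out mice were alternatives. Correlations used 100000 permutations within groups. The fits were checked before use on simulated counts of all nuclei and of astrocytes. The planted changes with alcohol were larger than most changes reported here, so the check does not cover smaller changes or the other classes. Motifs were searched with Python 3.11.15.

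The 10 genes, the gene lists, and the markers were chosen with earlier results of these data known. All 10 genes are described, with full values where called or at an unadjusted p under 0.05 in all nuclei. Genes of the other lists are named where called in all nuclei or in at least 2 classes of 1 comparison, and for Dbp and Arntl the 5 genes with the highest and the 5 with the lowest r at 10 or more CPM. Egr1 and Plin4, called in oligodendrocytes alone, are named outside this rule. The result for 1 marker gene is not reported here.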

Additional observations from a re-analysis of the deposited data

Results flagged for a closer look

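In 3 instances a single mouse stood far from the other 3 of its group, by Dixon's criterion for 4 values at the 95% level. Chance alone marks about 1 in 20 independent groups, and 56 sets of 4 mice were examined, 40 in all nuclei and 16 in single classes. The count of 3 is near what chance would give, but the sets share mice and are not independent. Arntl was at 21.2 TMM-scaled CPM in WT control mouse 26, below the other WT controls (26.9 to 27.3). Per3 was at 106 in WT alcohol mouse 17, above the other mice of that group (83.4 to 84.8). Nr1d2 in glutamatergic neurons was at 108 in the same WT alcohol mouse 17, against 77.9 to 80.6 in the other 3. L6 CT nuclei were 8.02% of the nuclei of mouse 17 and 1.67% to 2.75% in the other 3. The part of this make-up in both values was not tested. For no clock gene in the sum of all nuclei did alcohol move every WT mouse one way and every 3xTg-AD mouse the other way.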

How the results depend on the processing

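The 7 calls of single clock genes were lost in 48 of 157 refits. Of 16 results that were not called but had an unadjusted p under 0.05 in all nuclei, 7 of 352 refits gave a call. No refit changed a direction. The share of all genes called in each refit is not given here. Whether a changed count is particular to clock genes was therefore not tested. For all nuclei, the count of clock genes called with alcohol (1) was 2 with RLE scaling and with DESeq2 and ranged from 0 to 2 with 1 mouse left out. DESeq2 called 1 with genotype. In 3xTg-AD alcohol mice versus WT controls the count (1) was 0 without the 3 mice high in Gm42418 and with Gm42418 as a covariate, and 0 to 2 with 1 mouse left out. Over the 13 classes the count with genotype (2) was 1 with DESeq2 and 1 without the 3 mice, and 0 to 3 with 1 mouse left out. With alcohol (0) it was 1 with no count filter, 2 with DESeq2, 3 without the 3 mice, 2 with the covariate, and 0 to 4 with 1 mouse left out. In WT mice alcohol gave 3 with no count filter (0 otherwise), 3xTg-AD controls versus WT controls gave 0 to 2 with 1 mouse left out, and 3xTg-AD alcohol mice versus WT controls (3) gave 1 with the covariate and 2 to 4 with 1 mouse left out. With the stricter gate the 7 classes gave 0 in place of 1 with genotype and 1 in place of 2 in 3xTg-AD alcohol mice versus WT controls. Of the pairs of genes 2 in place of 4 passed by r without the 3 mice, and 1 by rho. Between neurons and glia, 1 in place of 3 passed by r with the stricter gate and 0 without the 3 mice, while by rho 0 passed with the stricter gate and Arntl passed without the 3 mice (adjusted p = 0.0482, permutation test). The cause of these shifts was not tested. TMM-scaled correlations and the paired comparison of classes were chosen after seeing the data. Mice could not be paired between groups, because no mouse number is shared between groups. Members with few UMIs in small classes could not be tested, and small changes may have been missed at this depth, which was not measured.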
